A study of Mus musculus with 6 samples.

Results

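Antisense RNA genes are genes annotated as transcribed from the strand opposite another gene and not classed as protein-coding. The label was taken as given and was not checked gene by gene. The genes described here are the autosomal rows of the count table with the antisense biotype and a sum of at least 200 counts over the 6 libraries, which gave 200 of 54532 genes. Of 2780 autosomal antisense genes, 2179 had at least 1 count. A further 4 antisense genes of chromosomes X and Y reached the minimum and were left out. The genes were chosen by their summed count, so their level is a description, while the difference between genotypes was not a criterion. The sum takes in both groups, so a gene low in 1 group can reach the minimum through the other.

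The libraries were made from poly-T selected RNA of cerebella at postnatal day 1. The 3 control libraries (Ctrl1 to Ctrl3) are from Tox3f/f littermates, and the 3 mutant libraries (cKO1 to cKO3) are from Nestin-cre;Tox3f/f mice. Both groups carry the floxed *Tox3* allele, derived from Tox3tm1a(KOMP)Mbp by a cross with mice carrying the FLP allele. The mutants alone carry the Nestin-cre transgene, from B6.Cg-Tg(Nes-cre)1Kln/j mice, which is active in neural progenitors of the whole nervous system, so the transgene and the deletion of *Tox3* cannot be told apart. *Tox3* encodes a transcriptional regulator with an HMG box, and the comparison asks which antisense RNAs differ when it is deleted from the developing cerebellum. The labels do not say whether a library is 1 animal or a pool. The p-values measure the spread between these libraries, which may in part be technical.

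Antisense transcripts overlap their partner gene in several arrangements. They can start near the promoter of the partner and run away from it, run into its far end, or lie within its introns. Some are known to act on the partner in the same chromosome copy, as *Kcnq1ot1* does in the imprinted cluster around *Kcnq1*, and others have no known function. In the developing cerebellum, granule neuron progenitors (GNPs) of the external granule layer are the most abundant dividing cells, and they give rise to granule neurons marked by *Pax6*.

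The libraries held from 15391854 to 17178478 counts, of which the 200 genes took from 0.135% to 0.148%. *Tox3* itself stood at 64.3, 63.0 and 64.4 CPM (counts scaled to a common library total by TMM, edgeR's factors for library composition) in the control libraries and at 55.3, 63.2 and 59.2 CPM in the mutants. Its groups overlapped and its log2 fold change was -0.11 (SE 0.06, edgeR adjusted p = 0.252). The count over the whole gene therefore does not check the genotype labels. The study reported a nearly complete loss of *Tox3* in such mutant cerebella by RT-qPCR, a different measure. Markers of the tissue were present. The 5 GNP markers (*Atoh1*, *Barhl1*, *Mfap4*, *Gli2* and *Mdga1*) summed to 784 to 849 CPM in control libraries and 228 to 254 CPM in mutants, and all 5 were lower. Among them *Atoh1* fell the most, from 501, 491 and 481 counts in controls to 10, 4 and 4 in mutants (log2 fold change -6.40, edgeR adjusted p = 8.85e-08). Of the 6 granule neuron markers, 4 were lower. By contrast, 4 of 6 Purkinje cell markers, 3 of 4 markers of GABAergic interneurons, 4 of 5 of the oligodendrocyte lineage and 2 of 5 of astrocytes and Bergmann glia were higher. The remaining oligodendrocyte marker, *Pdgfra*, had a log2 fold change of -0.45 and was not called. Markers of cerebellar nuclear neurons were mixed, with *Meis2* higher at 0.66 and *Slc17a6* at -0.49, not called. *En1*, a midbrain and anterior hindbrain marker, was lower at -1.54. Of the meningeal markers only *Col1a1* was called, higher at 0.85, and of the microglial markers only *C1qa*, higher at 0.59. No marker of endothelium or erythrocytes was called. The 4 choroid plexus markers, none of them called, summed to 73.4 to 138 CPM in controls and 11.2 to 747 CPM in mutants. In bulk tissue, fewer cells of a type and less RNA per cell cannot be told apart.

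Most of the genes carried only a systematic name. There were 106 with a Gm symbol, 58 with a Riken clone symbol and 24 named after the gene of the other strand, such as *Pax6os1*. The levels were low. The median gene had 367.5 counts over all libraries, and 132 of 200 had at most 500. *Tug1*, a conserved long non-coding RNA chosen here after its values were seen, had the most counts at 14738. Just inside the minimum lay *Gm16982* with 201 counts (38, 23 and 32 in controls, 34, 38 and 36 in mutants) and *6530409C15Rik* with 202 (37, 43 and 40, then 18, 42 and 22). Just outside lay *1700124L16Rik* with 199 (46, 27 and 35, then 20, 31 and 40) and *AC154667.1* with 199 (31, 42 and 45, then 40, 23 and 18). All 200 passed the filter on low counts. Over the controls alone 16 of them had fewer than 100 counts, and over the mutants alone 10 did.

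Protein-coding partners were found from the ends and strands of the genes in the table. A protein-coding gene of the other strand overlapped 188 of the 200, and where there were several the longest overlap was used. Of the 200, 71 lay inside the span of the partner, 62 were head to head with it (the 5′ ends overlap), 47 were tail to tail (the 3′ ends overlap), 8 lay around it and 12 had none. In head to head pairs the annotated starts were a median of 1035 bases apart and the overlap was 1036 bases. Genes inside the partner started a median of 36420 bases from its start. On the FPKM scale, which is per length, the antisense genes had a median level of 2.06 (from 0.246 to 41.9) and the partners 10.7. The median partner was 4.55 times higher than its antisense gene, and in 18 pairs the antisense gene was the higher. Both genes of 177 pairs passed the filter, with 173 different partners, since 4 partners lay opposite 2 antisense genes each.

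How the counting treated strand is unknown, and this decides what an antisense count means. Exon positions of GENCODE M21 were therefore used to ask how reads under exons of both strands had been counted. Of the genes whose exons lay wholly within exons of the other strand, opposite a gene of at least 1000 counts, 220 of 220 had 0 counts in every library. The genes opposite them had a median of 4183.5 counts. Among antisense genes 49 of 49 were at 0, with a median of 4911 counts for the gene opposite. Where no exon base was covered, only 778 of 2708 genes (28.7%) and 128 of 641 antisense genes (19.97%) were at 0. Exon bases shared with the other strand thus gave no counts to these genes. Counting by strand would have given them any reads of their own strand, and 220 of 220 had none. The counts therefore carry no sign that strand was used. This check was added after the data were seen.

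**Figure D1:**
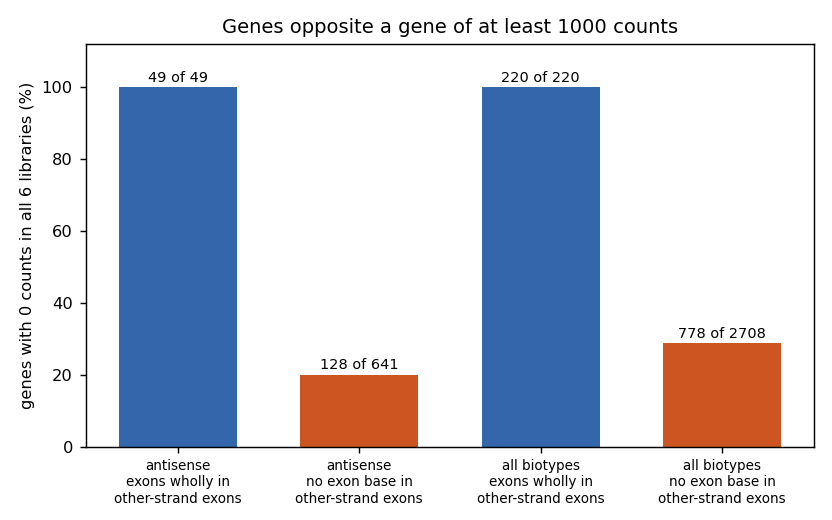
Percentage of genes with 0 counts in all 6 libraries (y axis, %), for antisense genes and for genes of all biotypes that lie opposite a gene of at least 1000 counts. All 49 and all 220 genes whose exons are wholly covered by exons of the other strand are at 0, against 128 of 641 and 778 of 2708 genes with no covered base.

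Counted in the same way, the 200 genes draw their values from exon bases outside the exons of the other strand. A median of 11.1% of their exon bases was covered by such exons, and 45 genes had none covered. For 73 genes, however, all remaining exon bases lay in introns of partners, where reads of unspliced partner RNA could be counted with the antisense gene. For 78 genes at least 50% of the remaining bases lay outside every partner. *Xist* and *Tsix*, an antisense pair of the X chromosome, were used as a second view. *Xist* had 31, 37159 and 33432 counts in the controls and 8, 30428 and 5 in the mutants, and *Tsix* had 2, 10 and 4, then 0, 12 and 4. *Tsix* was highest in cKO2 and Ctrl2, libraries with high *Xist*, but stood at 4 counts both in Ctrl3, where *Xist* was high, and in cKO3, where it was not. High *Xist* marks female tissue, and it was seen in Ctrl2, Ctrl3 and cKO2 but not in Ctrl1, cKO1 and cKO3. Sex was therefore not balanced between the groups, and the labels do not give it. An alternative fit with Y-chromosome gene level as a covariate is given below.

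Sequences are shown for the genes on which the comparisons turn. The first 2, from GENCODE M21 transcripts on GRCm38, are 300 base stretches of *Gm30177* and *Gm15577*, both of which lie wholly in an intron of their partner. Capitals mark the 20 bases across the junction of the first and second exon, a sequence that spliced antisense RNA holds and an unspliced partner does not. Bases 196 to 495 of the 579 bases of *Gm30177* are given (chr13:36727453-36729175, plus strand, an intron of 1423 bases removed), and bases 1 to 300 of the 2293 bases of *Gm15577* (chr3:156905856-156920780, minus strand, an intron of 14625 bases removed). The third is bases 219 to 518 of the 2536 bases of *D030047H15Rik* (chr7:4132440-4136708, minus strand, an intron of 3969 bases removed), in which capitals mark the 148 bases that lie within exons of *Ttyh1* on the other strand.
Gm30177: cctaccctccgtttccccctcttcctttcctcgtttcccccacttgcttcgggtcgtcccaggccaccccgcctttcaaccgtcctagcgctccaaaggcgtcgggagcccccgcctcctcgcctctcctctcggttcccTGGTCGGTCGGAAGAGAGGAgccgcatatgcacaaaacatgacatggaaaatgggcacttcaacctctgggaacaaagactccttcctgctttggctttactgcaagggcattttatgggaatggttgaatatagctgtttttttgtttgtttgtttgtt
Gm15577: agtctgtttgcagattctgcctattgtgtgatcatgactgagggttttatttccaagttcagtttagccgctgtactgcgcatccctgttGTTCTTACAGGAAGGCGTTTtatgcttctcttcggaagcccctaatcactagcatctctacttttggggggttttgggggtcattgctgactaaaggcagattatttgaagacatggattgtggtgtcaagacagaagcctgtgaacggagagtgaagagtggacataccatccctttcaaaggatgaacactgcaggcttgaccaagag
D030047H15Rik: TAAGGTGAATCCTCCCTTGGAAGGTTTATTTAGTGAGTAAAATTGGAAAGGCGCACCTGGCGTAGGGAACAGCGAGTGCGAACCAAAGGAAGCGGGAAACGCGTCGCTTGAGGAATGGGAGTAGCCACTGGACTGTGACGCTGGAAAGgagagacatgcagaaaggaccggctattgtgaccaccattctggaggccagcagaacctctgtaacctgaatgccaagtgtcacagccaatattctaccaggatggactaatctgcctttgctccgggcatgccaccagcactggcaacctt

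The promoters of 2 head to head pairs in which both genes changed the same way, from 250 bases before to 50 bases after the RefSeq start (GRCm38.p6), are given next. Capitals mark E-boxes, CANNTG, the motif of basic helix-loop-helix factors, which has the same form on both strands. The windows were chr2:105670281-105670580 on the minus strand for *Pax6os1*, chr2:105668646-105668945 on the plus strand for *Pax6*, chr7:4120679-4120978 on the minus strand for *9430041J12Rik* and chr7:4119280-4119579 on the plus strand for *Ttyh1*. The windows of a pair were 1335 bases apart at *Pax6* and 1099 bases apart at *Ttyh1* and so shared no base. The *Pax6os1* window held 1 E-box, that of *Pax6* none, that of *9430041J12Rik* 1 and that of *Ttyh1* 2. Of all 32851 windows of the RefSeq table, an E-box was in 72.3%, and CAGCTG, a form of the same motif that was in 0 of the 4, in 16.3%. Of the 200 genes, 90 matched a RefSeq window by symbol, 6 of them among the 13 that changed.
Pax6os1: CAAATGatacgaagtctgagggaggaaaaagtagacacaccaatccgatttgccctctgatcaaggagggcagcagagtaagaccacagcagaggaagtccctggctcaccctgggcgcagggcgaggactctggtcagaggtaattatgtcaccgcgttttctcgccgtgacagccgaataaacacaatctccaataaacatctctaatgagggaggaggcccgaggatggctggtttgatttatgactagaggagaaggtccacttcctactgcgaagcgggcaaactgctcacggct
Pax6: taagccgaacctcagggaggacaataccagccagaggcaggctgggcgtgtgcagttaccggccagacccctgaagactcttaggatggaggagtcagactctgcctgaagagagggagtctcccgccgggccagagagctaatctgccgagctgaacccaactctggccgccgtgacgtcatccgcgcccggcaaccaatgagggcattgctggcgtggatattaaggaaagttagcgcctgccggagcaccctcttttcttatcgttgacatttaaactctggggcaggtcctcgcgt
9430041J12Rik: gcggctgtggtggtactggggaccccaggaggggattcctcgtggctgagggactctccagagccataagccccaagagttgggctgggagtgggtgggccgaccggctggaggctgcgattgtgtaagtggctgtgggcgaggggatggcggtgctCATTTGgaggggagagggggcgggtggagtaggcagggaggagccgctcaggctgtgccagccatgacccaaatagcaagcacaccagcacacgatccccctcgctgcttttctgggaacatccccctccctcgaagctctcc
Ttyh1: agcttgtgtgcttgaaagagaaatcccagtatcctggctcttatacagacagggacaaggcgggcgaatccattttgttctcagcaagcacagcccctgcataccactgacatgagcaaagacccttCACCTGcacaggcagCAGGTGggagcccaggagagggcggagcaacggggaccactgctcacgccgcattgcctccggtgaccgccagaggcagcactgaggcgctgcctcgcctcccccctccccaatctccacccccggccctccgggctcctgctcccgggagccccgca

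Between control and mutant cerebella, 13 of the 200 antisense genes changed (6.5%), 8 of them lower (4%) and 5 higher (2.5%) in the mutants. A gene was called changed where its log2 fold change exceeded 0.5 in size with an adjusted p below 0.01 in edgeR's quasi-likelihood test over all 17505 genes tested. The background was 6.66% of all genes tested, 3.63% lower and 3.03% higher, so the antisense genes were called about as often as other genes. Among protein-coding genes 7.51% were called, and among all 578 antisense genes tested, low ones and those of chromosomes X and Y included, 2.94%. The median log2 fold change of the 200 was -0.02, beside -0.01 over all genes tested, and 148 lay within 0.5 of 0. The groups did not overlap for 58 of the 200 (29%), beside 40.5% over all genes tested. At an unadjusted p under 0.05 there were 46 (23%), beside 37.1%. Without Ctrl2 there were 5 lower and 2 higher calls, without Ctrl3 there were also 5 and 2, without cKO3 6 and 2, without Ctrl1 8 and 3, without cKO1 7 and 3 and without cKO2 10 and 4.

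**Figure D2:**
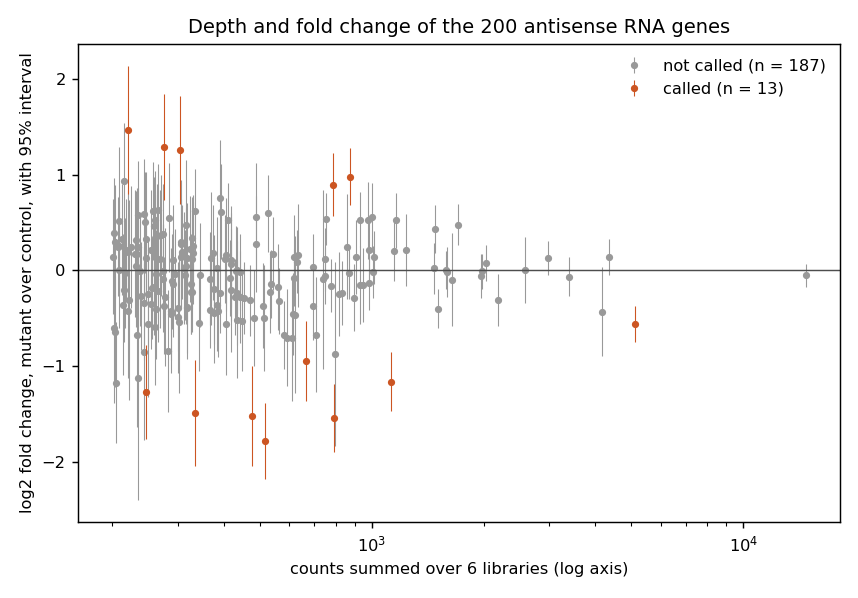
Log2 fold change, mutant over control (y axis, with 95% intervals), against the counts summed over 6 libraries (x axis, log scale) for the 200 antisense RNA genes, with the 13 called genes in orange. The intervals narrow with the count, and the called genes lie between 220 and 5123 counts.

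Depth limited what could be seen. The 95% interval of the log2 fold change had a median half-width of 0.50, beside 0.24 over all genes tested, and it lay wholly within 0.5 of 0 for 28 genes. Of the genes not called, the log2 fold changes ran from -1.17 to 0.94, and for most of them a change of the size of the threshold was neither shown nor bounded. *Tug1*, with the most counts, stood at 160, 164 and 150 CPM in controls and 150, 160 and 147 CPM in mutants. Its log2 fold change was -0.05, with a 95% interval from -0.17 to 0.07. *Gm11266* and *6330403L08Rik* passed the adjusted p but not the fold threshold, with log2 fold changes of -0.40 (edgeR adjusted p = 0.00973) and 0.48 (edgeR adjusted p = 0.00562).

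**Figure D3:**
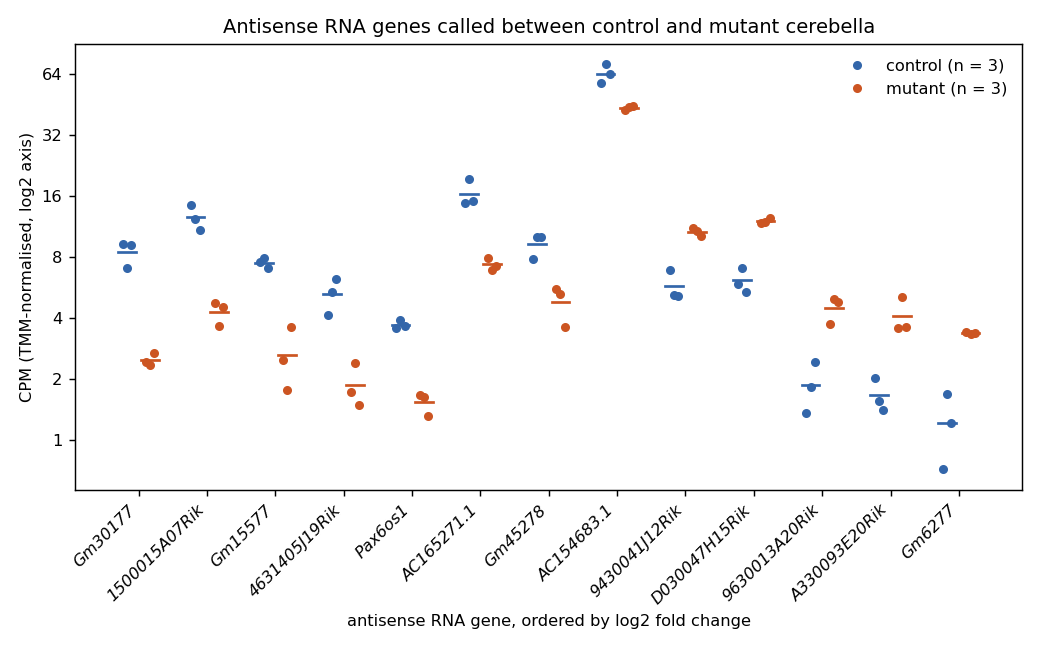
CPM of each library (y axis, log2 scale) for the 13 called antisense RNA genes, with 3 control libraries in blue and 3 mutant libraries in orange and a bar at each group mean. No gene has overlapping groups, and *Gm30177* at 7.10 to 9.31 CPM in controls and 2.35 to 2.68 CPM in mutants fell the most.

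*Gm30177*, in an intron of *Nrn1*, fell the most. It stood at 9.31, 7.10 and 9.18 CPM in the control libraries and at 2.42, 2.35 and 2.68 CPM in the mutants (chr13:36727258-36729259, plus strand). Every mutant library was below every control. The log2 fold change was -1.78 (SE 0.18, edgeR adjusted p = 1.18e-04). *Nrn1*, which encodes neuritin, a membrane-anchored protein that promotes neurite growth, fell alongside it, from 42.9, 36.8 and 44.9 CPM to 13.6, 11.7 and 14.4 CPM. Its log2 fold change was -1.65 (SE 0.11, edgeR adjusted p = 1.23e-05). The ratio of the antisense gene to its partner was compared within each library (log2 of CPM + 0.5, limma-trend over 514 pairs), and for this pair it differed by 0.03 between the groups, with a 95% interval from -0.37 to 0.42. All exon bases of *Gm30177* lie in the intron, so RNA of *Gm30177* and unspliced RNA of *Nrn1* cannot be told apart in these counts.

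*AC165271.1* and *AC154683.1*, both tail to tail with their partner, also fell, and of the partners *Kcnj6* was called lower and *Clybl* was not called. *AC165271.1* (chr16:94721894-94753438, plus strand) lies opposite *Kcnj6*, which encodes the potassium channel subunit GIRK2, and fell from 14.8, 19.5 and 15.1 CPM to 7.96, 6.91 and 7.22 CPM, with no overlap. Its log2 fold change was -1.16 (SE 0.14, edgeR adjusted p = 3.18e-04), beside -1.31 for *Kcnj6* (edgeR adjusted p = 1.48e-05). *AC154683.1* (chr14:122365239-122406743, minus strand), opposite the mitochondrial enzyme gene *Clybl*, had the highest FPKM of the 200 at 41.9. It fell from 58.1, 71.7 and 63.9 CPM to 42.7, 44.2 and 44.5 CPM, a log2 fold change of -0.56 (SE 0.08, edgeR adjusted p = 0.00102). That was close to the threshold, and without Ctrl2 it was -0.48 and no longer called. *Clybl*, at 22.7, 23.8 and 23.9 CPM in controls and 16.7, 17.6 and 15.6 CPM in mutants, had a log2 fold change of -0.50 that was just short of the fold threshold (edgeR adjusted p = 0.00225). *AC154683.1* was 1 of the 18 antisense genes with a higher FPKM than the partner, and *Clybl* stood at 13.8 FPKM. It also overlaps *Gm25464* on its own strand.

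*Pax6os1* starts 1430 bases from the start of *Pax6* and runs away from it. *Pax6* encodes a transcription factor of the granule cell lineage. *Pax6os1* was low, at 3.58, 3.91 and 3.66 CPM in controls and 1.67, 1.63 and 1.31 CPM in mutants (chr2:105536080-105670330, minus strand). The groups stood apart, and the log2 fold change was -1.27 (SE 0.22, edgeR adjusted p = 0.00247). *Pax6* fell from 399, 352 and 349 CPM to 188, 190 and 177 CPM, a log2 fold change of -0.99 (SE 0.06, edgeR adjusted p = 8.27e-06). Only 5.87% of the exon bases of *Pax6os1* lie in introns of *Pax6*, while 85.1% lie outside the partner. Its span also holds *Gm13890*, *Paupar* and *Rpl10-ps1* on its own strand. The call was lost without Ctrl2 (edgeR adjusted p = 0.0127), Ctrl3 (0.0107) or cKO3 (0.0123), with log2 fold changes of -1.17 to -1.28.

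*Gm45278*, inside *Ebf3*, was another called antisense gene opposite a transcription factor. *Ebf3* encodes a helix-loop-helix factor of neuronal differentiation. *Gm45278* (chr7:137198488-137201722, plus strand) fell from 7.88, 10.03 and 10.02 CPM to 5.59, 5.28 and 3.61 CPM without overlap, a log2 fold change of -0.94 (SE 0.19, edgeR adjusted p = 0.00534). The call was lost without Ctrl2 (edgeR adjusted p = 0.0242), Ctrl3 (0.0246) or cKO3 (0.0156). *Ebf3* stood at 410, 408 and 375 CPM in controls and 318, 280 and 289 CPM in mutants. Its log2 fold change of -0.43 (edgeR adjusted p = 7.80e-04) was short of the fold threshold. Of the exon bases of *Gm45278*, 85.3% lie in introns of *Ebf3* and the rest under exons of the other strand.

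Of a list of 175 brain transcription factor genes, 5 were partners. Besides *Pax6* and *Ebf3* these were *Nfib* opposite *Gm11266*, *Prdm8* opposite *A730035I17Rik* and *Lhx5* opposite *Gm27199*. Of the 5 antisense genes 2 were lower and none was higher, and of the 5 partners 3 were lower (*Pax6*, *Nfib* and *Prdm8*). The median log2 fold change was -0.70 for the antisense genes and -0.59 for the partners. Over all genes tested 3.63% were lower and 3.03% higher, and the median was -0.01. The list is not complete, as *Prdm11*, *Jun* and *Nr2f1*, also partners, are outside it. Of these, *Jun* was called higher, at 0.84 (edgeR adjusted p = 1.68e-05). *Nr2f1* at 0.33 and *Prdm11* at -0.03 were not called. Their antisense genes were *Junos* at 0.55 and *A830082K12Rik* at 0.08, not called, and *4631405J19Rik* at -1.49, called lower. *A730035I17Rik* stood at 8.79, 7.36 and 7.13 CPM in controls and 5.19, 3.06 and 5.98 CPM in mutants, which was not called (log2 fold change -0.70, edgeR adjusted p = 0.0465). *Gm27199* at 0.12 (edgeR adjusted p = 0.714) was the single antisense gene of the 5 with a positive value. Its partner *Lhx5* stood at 0.43 (edgeR adjusted p = 0.00139), short of the fold threshold. No partner was among 97 cell cycle genes. The 173 partners are a small part of the 14650 protein-coding genes tested, so this absence says nothing about the antisense genes. Whether the lower GNP marker level had a part in the falls of the antisense genes was not tested.

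Besides *AC154683.1* and *Gm45278*, 3 antisense genes fell while the partner was not called. The first was *1500015A07Rik*, tail to tail with *Afap1l1*, which encodes an actin filament associated protein. *1500015A07Rik* (chr18:61726390-61735917, plus strand) stood at 14.5, 12.4 and 10.9 CPM in controls and 4.73, 3.65 and 4.55 CPM in mutants, and the groups stood far apart. Its log2 fold change was -1.54 (SE 0.16, edgeR adjusted p = 1.50e-04). *Afap1l1* stayed between 20.3 and 22.1 CPM in all 6 libraries, with a log2 fold change of -0.02 (SE 0.08, edgeR adjusted p = 0.855). The ratio of the pair was lower by 1.42 on the log2 scale in the mutants (difference -1.42, 95% interval -1.79 to -1.04, limma adjusted p = 4.53e-04). Of the exon bases of *1500015A07Rik* 81.2% lie outside the partner. The difference in ratio was not called without Ctrl3 (-1.48, limma adjusted p = 0.0108).

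*Gm15577*, which lies in an intron of *Negr1*, also fell. *Negr1* encodes a neuronal adhesion protein of the immunoglobulin family. *Gm15577* (chr3:156903863-156920780, minus strand) had 7.55, 7.94 and 7.06 CPM in controls and 2.48, 1.76 and 3.61 CPM in mutants. All mutant values were below all control values, with a log2 fold change of -1.52 (SE 0.23, edgeR adjusted p = 0.00132). *Negr1* was higher in all 3 mutants, at 120, 121 and 114 CPM beside 94.7, 91.1 and 93.9 CPM, but its log2 fold change of 0.34 (SE 0.05, edgeR adjusted p = 0.00102) did not pass the fold threshold. The ratio differed by -1.74 (95% interval -2.24 to -1.24, limma adjusted p = 6.07e-04). This ratio was not called without Ctrl2 (-1.69, limma adjusted p = 0.0145) or Ctrl3 (-1.79, limma adjusted p = 0.0293). Of the exon bases of *Gm15577* 100% lie in the intron, and the part of unspliced *Negr1* RNA in its counts was not tested.

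*4631405J19Rik* lies within introns of *Prdm11*, a gene of the PR domain family. It stood at 4.17, 5.40 and 6.23 CPM in controls and 1.73, 2.41 and 1.49 CPM in mutants (chr2:93027956-93044732, plus strand), without overlap. The log2 fold change was -1.49 (SE 0.25, edgeR adjusted p = 0.00198), beside -0.03 for *Prdm11* (SE 0.07, edgeR adjusted p = 0.756). The call was lost without Ctrl3 (edgeR adjusted p = 0.0117) or cKO1 (0.01005). The difference in ratio of -1.24 (95% interval -1.75 to -0.74) did not pass the threshold (limma adjusted p = 0.0176). It did pass without Ctrl1 (limma adjusted p = 0.00661) or cKO2 (limma adjusted p = 0.00989).

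**Figure D4:**
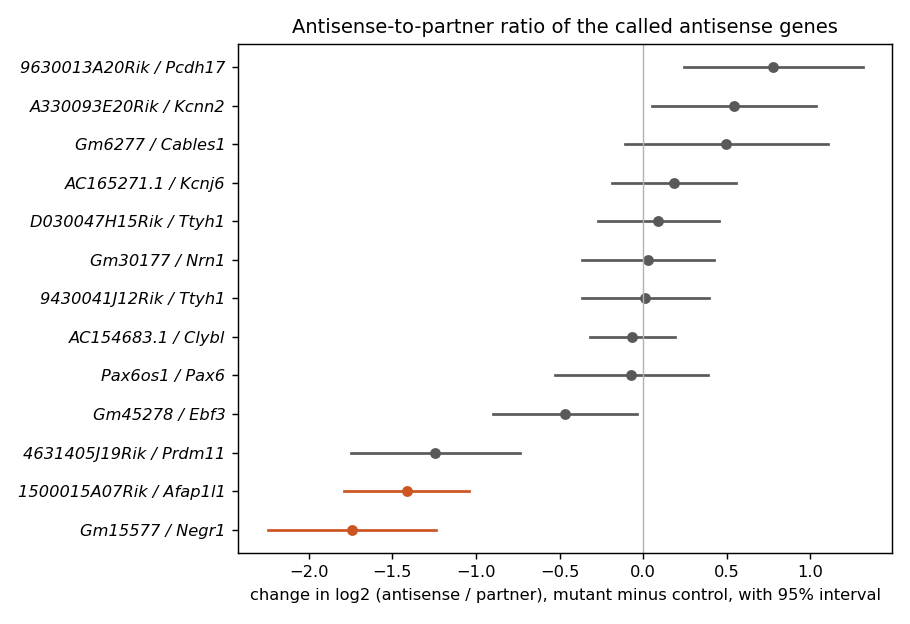
Change in the log2 ratio of antisense gene to partner, mutant minus control (x axis), with 95% intervals for the 13 called antisense genes and their partners. The 2 called differences, at *Gm15577* (-1.74) and *1500015A07Rik* (-1.42), are in orange, and 7 of the 13 intervals hold 0.

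Of the 5 antisense genes that rose, 2 lie at *Ttyh1*, a membrane protein gene of glia and neural progenitors. *D030047H15Rik* runs into the far end of *Ttyh1* (chr7:4126340-4136926, minus strand), and *9430041J12Rik* starts 1320 bases from its start and runs away (chr7:4074125-4120728, minus strand). *D030047H15Rik* rose from 5.92, 7.10 and 5.39 CPM to 11.8, 11.99 and 12.5 CPM, a log2 fold change of 0.98 (SE 0.13, edgeR adjusted p = 7.12e-04). *9430041J12Rik* rose from 6.90, 5.21 and 5.14 CPM to 11.2, 10.8 and 10.2 CPM, a log2 fold change of 0.90 (SE 0.15, edgeR adjusted p = 0.00194). In neither did the groups overlap. *Ttyh1* itself rose from 268, 264 and 261 CPM to 471, 454 and 498 CPM, a log2 fold change of 0.84 (SE 0.05, edgeR adjusted p = 5.52e-06). The ratios differed by 0.09 (95% interval -0.27 to 0.45) and 0.01 (95% interval -0.37 to 0.39). Intron bases of *Ttyh1* make up 81.8% of the exon bases of *D030047H15Rik* and 28.2% of those of *9430041J12Rik*, and 59.4% of the latter lie outside. The call of *9430041J12Rik* was lost without Ctrl2 or Ctrl3 (edgeR adjusted p = 0.0106 in both). The 5 markers of astrocytes and Bergmann glia summed to 2141 to 2220 CPM in controls and 3170 to 3378 CPM in mutants, and their part in these rises was not tested.

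The other 3 genes that rose were among the lowest in level. *A330093E20Rik*, tail to tail with *Kcnn2*, which encodes a calcium-activated potassium channel, rose from 2.02, 1.56 and 1.41 CPM to 3.58, 5.08 and 3.61 CPM (log2 fold change 1.29, SE 0.25, edgeR adjusted p = 0.00439). *Kcnn2* rose too, from 25.8, 29.9 and 29.3 CPM to 38.3, 44.3 and 41.2 CPM (log2 fold change 0.54, edgeR adjusted p = 0.00198). *9630013A20Rik*, within introns of the protocadherin gene *Pcdh17*, rose from 1.37, 1.82 and 2.44 CPM to 3.75, 4.95 and 4.796 CPM (log2 fold change 1.25, SE 0.25, edgeR adjusted p = 0.00542). Its partner was not called, at a log2 fold change of 0.31 (edgeR adjusted p = 0.0150). *Gm6277*, head to head with *Cables1*, which encodes a protein that binds cyclin-dependent kinases, had 0.716, 1.69 and 1.22 CPM in controls and 3.40, 3.32 and 3.36 CPM in mutants (log2 fold change 1.47, SE 0.30, edgeR adjusted p = 0.00583). *Cables1* rose from 8.72, 6.77 and 7.26 CPM to 11.4, 12.8 and 14.1 CPM (log2 fold change 0.75, edgeR adjusted p = 0.00347). In each of the 3 antisense genes the lowest mutant library was above the highest control. These calls were lost in several fits that left out 1 library. That of *A330093E20Rik* was lost without Ctrl2, Ctrl3, cKO1, cKO2 or cKO3 (edgeR adjusted p from 0.0103 to 0.0207), that of *9630013A20Rik* without Ctrl1, Ctrl2, cKO2 or cKO3 (0.0122 to 0.0233), and that of *Gm6277* without Ctrl1, Ctrl3, cKO1 or cKO3 (0.0145 to 0.0235), while the log2 fold changes in these fits stayed at 1.07 or above.

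**Figure D5:**
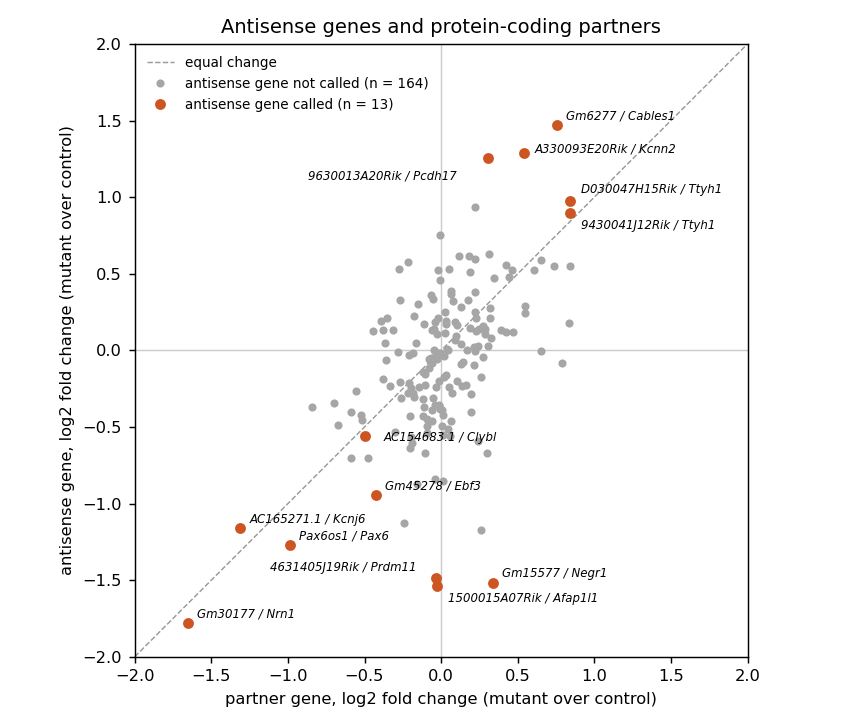
Log2 fold change, mutant over control, of each antisense gene (y axis) against that of its protein-coding partner (x axis) for 177 pairs, with the 13 called antisense genes in orange and the line of equal change dashed. *Gm30177* and *Nrn1*, at -1.78 and -1.65, lie close to the line, while *1500015A07Rik*, *Gm15577* and *4631405J19Rik* lie far below it.

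Across the pairs, partners changed in 17 of 173 (9.83%), 8 lower (4.62%) and 9 higher (5.2%). Among all protein-coding genes tested 7.51% were called, and among all genes 6.66%, with 3.63% lower and 3.03% higher. Of the 13 called antisense genes, 7 had a partner called in the same direction (53.8%) and 0 had one called in the other. *D030047H15Rik* and *9430041J12Rik* share the partner *Ttyh1*, which is therefore counted more than once. Of the 164 antisense genes that were not called, 11 had a partner called in either direction (6.71%). The log2 fold changes had the same sign in 123 of 177 pairs (69.5%), with a Pearson r of 0.55. It was 0.48 over the 70 pairs whose countable exon bases all lie in introns of partners and 0.51 over the 74 pairs with at least 50% of these bases outside. The genes of a pair come from the same libraries, so these are descriptions. The median size of the difference in ratio was 0.23 over the 177 pairs. It was 0.20 for 20 sense intronic genes of at least 200 counts, which lie in an intron of a gene on their own strand, and these hosts.

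The difference in ratio was called in 2 of the 177 pairs (1.13%), both lower, beside 2 of all 514 pairs tested (0.389%). Without Ctrl3 it was called in 0 pairs, without Ctrl2 in 1 and without Ctrl1 in 4. At an unadjusted p under 0.05 there were 24 (13.6%), beside 10.5% of all pairs. The next after the pairs above, chosen after their values were seen, were *9630028H03Rik* with *Plcb1* at 0.78 (limma adjusted p = 0.0223) and *A430027H14Rik* with *Kcnk2* at -1.17 (limma adjusted p = 0.0410). In 26 pairs the interval of the difference lay within 0.5 of 0, and the median half-width was 0.47. Where antisense gene and partner were both called the same way, no difference in ratio passed the threshold, the lowest limma adjusted p being 0.384. A p that misses the threshold does not show equal change.

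By arrangement, the genes inside their partner had 4 lower and 1 higher call among 71, head to head genes 1 and 2 among 62, and tail to tail genes 3 and 2 among 47. None of the 8 genes around a partner or of the 12 without one was called. Over all genes tested 3.63% were lower and 3.03% higher. Median log2 fold changes were -0.10, 0.03 and 0.00 in the first 3 classes, and the classes were not tested against each other.

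The antisense genes with the highest FPKM after *AC154683.1* were not called. *Gm26833*, without a partner, had 13.5, 11.8 and 14.5 CPM in controls and 17.1, 19.6 and 17.0025 CPM in mutants and a log2 fold change of 0.43 (edgeR adjusted p = 0.0177). *Gm17201* opposite *Ankrd52*, at 9.38 to 11.5 CPM, and *Gm13375*, at 20.3 to 22.1 CPM, had log2 fold changes of -0.02 and -0.01. For *Gm14286*, at 9.96 to 14.4 CPM, it was 0.20 (edgeR adjusted p = 0.321). The groups overlapped in these last 3 genes.

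Among antisense genes named after the gene of the other strand, none of the 10 with the most counts was called. *Tmem74bos* came closest, at 6.44, 6.38 and 6.55 CPM in controls and 9.17, 9.91 and 9.03 CPM in mutants, a log2 fold change of 0.54 (edgeR adjusted p = 0.0103). It was called in 4 of 15 alternatives, with DESeq2's size factors (edgeR adjusted p = 0.00963), library size alone (0.00868), Y-chromosome gene level as a covariate (0.00953) and limma on log2(FPKM + 0.1) (0.00898). *Kcnq1ot1*, the imprinted antisense RNA of *Kcnq1*, had 25.6, 24.7 and 26.3 CPM in controls and 20.2, 24.6 and 17.1 CPM in mutants, a log2 fold change of -0.31 (edgeR adjusted p = 0.0941). Its groups lay side by side without overlap, cKO2 being close to the lowest control. *Srrm4os*, opposite the neuronal splicing factor gene *Srrm4*, had 5.99, 8.59 and 9.57 CPM and 3.40, 7.56 and 3.92 CPM, and here cKO2 lay within the control range (log2 fold change -0.71, edgeR adjusted p = 0.108). Without cKO2 it was called, at -1.13 (edgeR adjusted p = 0.00543). *Brip1os*, *Rab10os*, *Tmem147os*, *Kcnmb4os2*, *Sp3os*, *Mypopos* and *Zfp335os* had log2 fold changes from -0.46 to 0.13, none called. For the pair *Brip1os* and *Ints2*, an Integrator subunit gene, the ratio differed by 0.58 (95% interval 0.27 to 0.88, limma adjusted p = 0.0695).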

How the data were processed

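RNA of 6 cerebella libraries, 3 control and 3 mutant, was compared. The authors aligned reads of 150 bases to mm10 with HISAT2 2.0.5 and deposited counts per gene made with featureCounts 1.5.0-p3, and FPKM values, which per the study is a count scaled by depth and gene length. Strand setting, annotation release and the handling of reads in overlapping genes are not given in the sources used here. The antisense genes, lists and rules were chosen with earlier results of these data known.

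Counts were fitted with edgeR 4.0.16 in R 4.3.3 (filterByExpr, TMM, glmQLFit, glmQLFTest), with Benjamini-Hochberg adjustment over 17505 genes and the call thresholds of the study. Ratios of CPM + 0.5 were fitted with limma 3.58.1. The scripts were tested on simulated data. The lowest two-sided p of a permutation of 3 against 3 is 0.1, and the p-values rest on these models. Exons came from GENCODE M21, in which 195 of the 200 genes had the same ends and exon length. Same-group libraries differed by more than sampling noise, so none was a copy. Alternatives were DESeq2 1.42.0, other size factors, filters and pseudocounts, FPKM, Y-chromosome gene level as a covariate, the replicate number as a block, other pairs and minimums, and each library left out.

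The named genes were those called, the 5 of highest FPKM, the 10 of most counts named after the gene of the other strand, pairs with a called ratio, 2 genes on each side of the minimum, the partners, *Tox3*, *Xist* and *Tsix*, and markers and list members. Others are marked as chosen after their values were seen.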

Additional observations from a re-analysis of the deposited data

How the results depend on the processing

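*Gm30177*, *1500015A07Rik*, *AC165271.1* and *D030047H15Rik* kept their calls under all 15 alternatives, and no called gene changed direction. The 8 lower calls became 15 with no filter on low counts, 5 with limma on log2(FPKM + 0.1) and 5 with a minimum of 500 counts (68 genes), and ran from 5 to 10 with each library left out. The 5 higher calls became 9 with no filter, 2 with limma on log2(FPKM + 1), 3 on log2(FPKM + 0.1), 10 with Y-chromosome gene level as a covariate and 2 with a minimum of 500 counts, and ran from 2 to 4 with each library left out. The 2 lower calls of the ratio became 4 with a pseudocount of 2 CPM, 1 for genes wholly inside the partner, 0 on FPKM, 1 where most countable exon bases lie outside the partner (a choice made after seeing the data) and 1 with a minimum of 500 counts, and ran from 0 to 4 with each library left out. The 0 higher calls of the ratio became 1 with a pseudocount of 2 CPM, and were 0 with each library left out. A higher minimum leaves fewer genes by construction, and the cause of the other moves was not tested.

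Replicate numbers marked no pairs: deviations of same-numbered libraries correlated at 0.26, 0.30 and -0.16, and those of differently numbered libraries at -0.44 to 0.28. The correlation was positive where both libraries were high or both were low in *Xist*, and negative in all other pairs. Whether sex had a part in this was not tested. With the replicate number as a block, the ratio had 4 lower and 2 higher calls, and the higher expression calls were 6. The signs that turned were of values that had not been called. For the ratio, *Gm30177* stood at -0.11 on FPKM and from -0.022 to 0.068 with each library left out, *AC154683.1* from -0.12 to 0.0048 and *9430041J12Rik* from -0.048 to 0.13. With a pseudocount of 2 CPM it was 0.28 for *Pax6os1*, -0.040 for *D030047H15Rik* and -0.12 for *9430041J12Rik*. With library size alone the log2 fold change of *Gm17201* was 0.00090 and that of *Gm13375* 0.0076, and with each library left out *Gm17201* ran from -0.063 to 0.068, *Gm13375* from -0.032 to 0.030 and *Rab10os* from -0.16 to 0.10. Low counts limited precision, as 132 of 200 genes had at most 500 counts.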
